A study of Mus musculus with 12 samples.

Results

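The genes described here are the autosomal genes of respiratory complex I, read as chromatin-associated RNA in mouse embryonic stem cells (mESCs). They were taken by name: every gene of the deposited count tables whose symbol begins with Ndufa, Ndufb, Ndufc, Ndufs or Ndufv and that lies on chromosomes 1 to 19. This gave 43 of 22556 genes. By role, 7 of them encode core subunits, 27 encode accessory subunits, 7 are assembly factors named Ndufaf, and 2, Ndufa4 and Ndufa4l2, are related genes of complex IV. The X-linked subunit genes Ndufa1 and Ndufb11 are described beside them as non-members.

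The study asked how parts of the Xist RNA contribute to gene silencing, in female iXist-ChrX mESCs whose genome is a hybrid of 129S and Cast. In all lines the native promoter of Xist on the 129S allele had been exchanged for a TetOn promoter, so that doxycycline (Dox, 1.0 to 1.5 µg/mL for 24 h) switches Xist on from that chromosome. There were 12 libraries in 6 pairs, each pair being 0 h against 24 h of Dox: 1 pair of WT cells, 1 pair from each of the XistDelA clones C1, 2C2 and C11, which lack the A-repeat, and 2 replicate pairs of XistDelm6A/T1_11C (the 11C line), which lacks the region of Xist with m6A sites next to it. The label of the deletion in C11 is not the one used for C1 and 2C2. Each line is a single line or clone, so clone and genotype cannot be told apart, and the p-values below measure the spread between these libraries. The labels describe culture on fibroblast feeders, while the paper describes removal of feeders before RNA was taken.

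Complex I is the entry point of the respiratory chain: it takes electrons from NADH, passes them through a flavin and a chain of iron-sulfur clusters to ubiquinone, and pumps protons out of the mitochondrial matrix. The nuclear core subunits form the arm that oxidises NADH and reduces ubiquinone, the accessory subunits surround and brace the complex, and the assembly factors help to build it without staying in it. mESCs draw energy from glycolysis as well as from respiration, and complex I also needs core subunits encoded by mitochondrial DNA, whose genes are not in the count tables.

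The values are read pairs on whole genes, introns included, and are given per 1000000 counts on genes of the library (RPM). Depth ran from 18893447 counts on genes, in 11C replicate 2 without Dox, to 36007145, in 11C replicate 1 with Dox. The 43 genes together took from 935 to 1114 RPM, and the mean count of 29 of them reached 200. Xist, the gene that Dox switches on, was read first as a check of the labels. It had 297 RPM in WT without Dox, 124, 126 and 158 RPM in C1, 2C2 and C11, and 100 and 85.6 RPM in the 11C replicates. With Dox it had 5514 RPM in WT, 1543, 1267 and 1600 RPM in C1, 2C2 and C11, and 3140 and 4576 RPM in the 11C replicates. Every library with Dox therefore lay above every library without it. The labelled cell type was checked with 10 markers of pluripotent cells, whose summed level was between 1639 and 2452 RPM, with Zfp42 the most abundant in 10 libraries and Esrrb in the other 2. Sox2 had 0 counts in all 12 libraries, which allows up to 0.0833 to 0.159 RPM (3 counts), but it lies inside Sox2ot on the same strand, where read pairs were not counted for either gene. The 10 markers of fibroblast feeders summed to between 10.4 and 34.2 RPM, Fbln2 being the most abundant in every library. Lum was at 0 in 10 of the 12 libraries and Postn in 1. Such bulk values cannot tell fewer cells of a type from less RNA per cell. Counting intervals and floors in the text cover counting error alone.

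The 4 libraries of the 11C line stood apart from the other 8. Relative to each gene's median over libraries, autosomal genes spread with an SD of 0.65 to 0.80 on the log2 scale in the 11C libraries and of 0.37 to 0.46 in the others. The short nuclear RNAs Rmrp and Rpph1, chosen after their values were seen, had 4056 to 7638 and 1902 to 6506 RPM in 11C against 498 to 918 and 216 to 461 RPM elsewhere. Within 11C, the replicates with Dox went opposite ways with gene length. In replicate 1 autosomal genes under 10 kb had a median of 0.40 and those over 50 kb a median of 0.18 on this log2 scale, and in replicate 2 these were -0.25 and 0.12. Of the complex I genes 26 are under 10 kb, 15 are 10 to 50 kb and 2 are over 50 kb, and their median was 0.31 in replicate 1 with Dox and -0.40 in replicate 2 with Dox. The part that gene length plays was looked at by fits without each library's length trend and, for the median over pairs, by a reference of autosomal genes of like length. Results that rest on 11C are therefore given for each replicate, and with either one left out where that moves them. All libraries of the 11C line share these traits, so a difference of the line cannot be told apart from one of its library set.

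The complex I genes are short and moderately expressed. Their median length was 8.38 kb, against 24.5 kb over the 14406 autosomal genes whose mean count reached 10, and their median level was 1.36 RPM per kb of gene, against 0.75 RPM per kb. Without division by length their median level was 10.9 RPM, against 14.4 RPM over those autosomal genes, so the direction depends on the scaling. The genes lie on 15 chromosomes. All 43 were found by name in GENCODE M21, none overlapped another gene on the same strand, and 4 overlapped a gene on the other strand, which the strand-specific counting keeps apart. Processed pseudogenes of Ndufab1, Ndufs6, Ndufb4 and Ndufa11 are annotated, and how their reads were placed is unknown.

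Among core subunits, Ndufv1, which holds the flavin and the NADH site, had the highest level per length of all members, a mean of 5.63 RPM per kb. Ndufs1, the large iron-sulfur subunit of the same module, had 2.4 RPM per kb. The subunits of the ubiquinone-reducing module followed, with 2.31 RPM per kb for Ndufs3, 1.35 for Ndufs8 and 1.25 for Ndufs7. Ndufv2, an iron-sulfur subunit beside Ndufv1, had 1.36 RPM per kb. The core genes named here thus differed among themselves by several fold in chromatin-associated RNA per length of gene. Their proteins are built into the complex in equal number, but this measure depends on gene length and is not one of protein. Of the assembly factors, Ndufaf4, which acts on the ubiquinone-reducing module together with Ndufaf3, had a mean of 4.28 RPM per kb over all libraries. This was the second highest mean of all members, and it joins libraries of unlike level. Ndufa4, once counted as a complex I subunit and now as one of complex IV, came next with 3.42 RPM per kb. The lowest levels belonged to Ndufa4l2, a hypoxia-inducible relative of Ndufa4, with 0.20 RPM per kb, and to Ndufs5 and Ndufb2, accessory subunits of the membrane arm, with 0.25 and 0.58 RPM per kb. In the plot of levels per kb the 11C libraries of Ndufaf4 and of the core gene Ndufs1 lie below the others, and those of Ndufa4l2 lie above, 3 of the 4 by far.

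**Figure D1:**
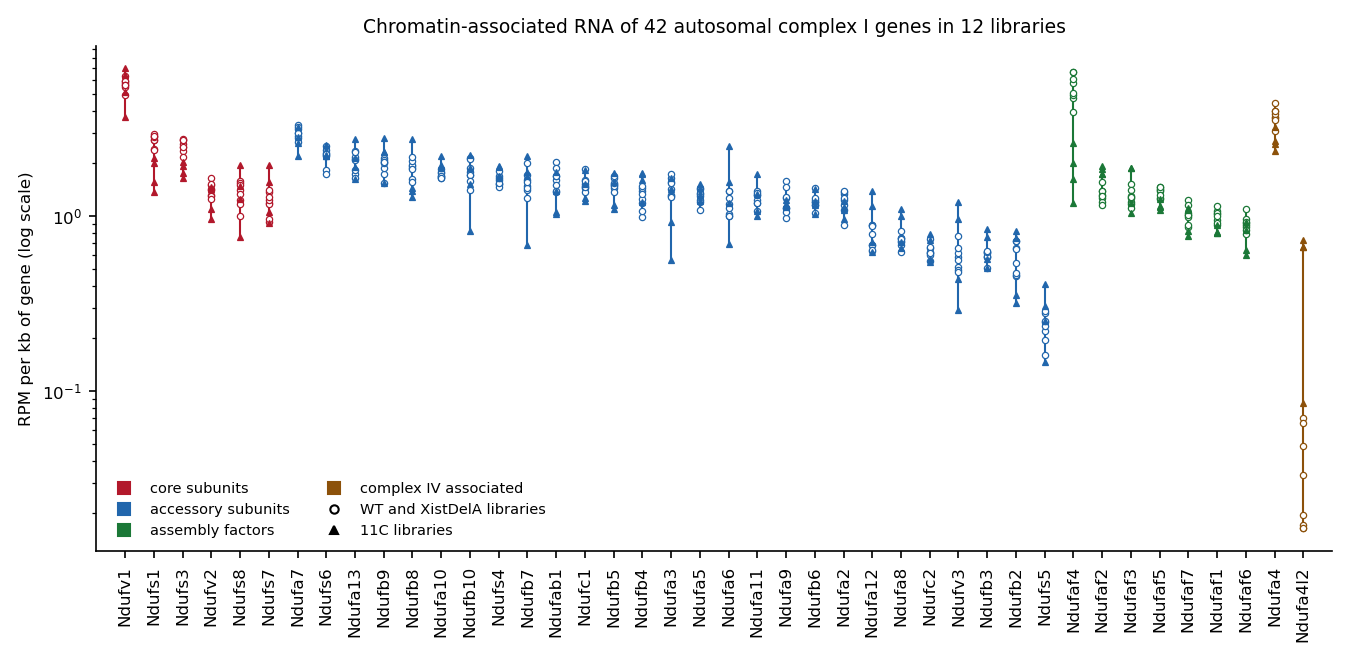
RPM per kb of gene on a log axis (vertical) for 42 of the 43 genes (horizontal, grouped by role and ordered by level), with 1 point for each of the 12 libraries, open circles for WT and XistDelA and triangles for 11C. Ndufv1 and Ndufaf4 have the highest means per kb, and Ndufa4l2 is near 0 outside 11C.

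Where the start of a gene is known, the 250 bases before it were read from RefSeq promoter sequences (GRCm38.p6), which matched 37 of the 43 genes. Motifs were searched on both strands as exact letters. The ETS-like letters CCGGAAG were in 4 of the 37 (10.8%), against 7.05% of 27025 promoters. The NRF1-like letters GCATGCG were in 4 (10.8%), against 3.07% of all. The YY1-like letters AAGATGG were in 0, against 4.53%, and CCAAT was in 12 (32.4%), against 34.5%. These counts describe the letters in this window and no binding was measured. Below are the 120 bases before the RefSeq start of 3 genes that recur in the results, chosen after their values were seen: Ndufaf4 (chr4:24897963-24898082, plus strand), low in 11C; Ndufs3 (chr2:90904722-90904841, minus strand), a core gene that is lower there; and Ndufa4 (chr6:11907451-11907570, minus strand), lower with Dox in each pair. Capitals mark the NRF1-like letters of Ndufaf4, which are found on both strands and overlap, and the ETS-like letters of Ndufs3; Ndufa4 has none of the 4 motifs, and neither do Ndufab1 and Ndufa12, which come up with Dox and are not shown.
Ndufaf4: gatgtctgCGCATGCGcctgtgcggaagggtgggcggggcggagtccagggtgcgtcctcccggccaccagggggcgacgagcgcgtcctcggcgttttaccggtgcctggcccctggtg
Ndufs3: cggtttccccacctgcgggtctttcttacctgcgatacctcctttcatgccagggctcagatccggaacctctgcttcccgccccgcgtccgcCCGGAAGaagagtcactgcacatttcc
Ndufa4: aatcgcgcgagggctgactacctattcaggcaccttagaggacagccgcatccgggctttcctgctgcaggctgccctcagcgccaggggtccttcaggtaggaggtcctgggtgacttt

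The first question was whether 24 h of Dox moved complex I genes in the 6 pairs. Most did not move by more than the spread between libraries, and the core genes stayed close to where they were. The clearest members were Ndufaf4 and Ndufa4, which were lower with Dox in 6 of 6 pairs, and Ndufab1 and Ndufa12, which were higher in 5 of 6. None of these passed the test in which the 11C replicates share 1 line term, and all 4 passed once every pair was its own block.

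Ndufaf4 had 39.8 RPM without Dox and 32.9 RPM with Dox in WT. In C1, 2C2 and C11 it had 34.2, 46.2 and 46.0 RPM without Dox and 27.2, 35.1 and 42.2 RPM with Dox. In the 11C replicates it had 18.1 and 11.2 RPM without Dox and 13.9 and 8.25 RPM with Dox. Each library with Dox lay under its own partner, although the clones differed so much that the states overlap. Ndufa4 had 25.9 and 25.8 RPM in WT without and with Dox. It had 28.1, 31.4 and 28.4 RPM in C1, 2C2 and C11 without Dox and 21.8, 27.1 and 25 RPM with Dox. The 11C replicates had 19 and 22.8 RPM without Dox and 16.7 and 18.4 RPM with Dox, so it was lower by little in WT and by more in each clone.

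Ndufab1, the acyl carrier protein of mitochondria that is also a subunit of complex I, had 22.3 and 28.2 RPM in WT without and with Dox. It had 19.1, 20.8 and 19.3 RPM in C1, 2C2 and C11 without Dox and 23.4, 23.4 and 26.1 RPM with Dox. In 11C it had 19.2 and 14.5 RPM without Dox and 24.7 and 14.3 RPM with Dox. It was higher with Dox in all pairs but 11C replicate 2. Ndufa12, an accessory subunit related in sequence to the assembly factor Ndufaf2, had 15.1 and 19.4 RPM in WT without and with Dox. It had 15.0, 13.9 and 14.1 RPM in C1, 2C2 and C11 without Dox and 19.5, 19.2 and 17.3 RPM with Dox. The 11C replicates had 24.9 and 15.7 RPM without Dox and 30.7 and 13.6 RPM with Dox, so the exception was again 11C replicate 2.

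By edgeR's quasi-likelihood test with Benjamini-Hochberg adjustment over 15826 genes, 147 genes (0.929%) passed an adjusted p of 0.05 and 0 of the 43 did. At an unadjusted p under 0.05 there were 2336 of the 15826 genes and 3 of the 43 members, a smaller share than over all genes. The 3 were Ndufaf4 with a log2 change of -0.34 (SE 0.112, adjusted p 0.188), Ndufab1 with 0.25 (SE 0.103, adjusted p 0.283) and Ndufa4 with -0.23 (SE 0.101, adjusted p 0.320). DESeq2 called 621 genes and 0 members, with 2188 genes and 3 members at an unadjusted p under 0.05. With the pair as replicate block, edgeR called 2588 genes (16.4%) and 4 members (9.3%), a smaller share than over all genes. In that paired fit Ndufaf4 fell by 0.34 (SE 0.0639, adjusted p 0.00203), Ndufa4 fell by 0.23 (SE 0.0645, adjusted p 0.0223), Ndufab1 rose by 0.25 (SE 0.0682, adjusted p 0.0186) and Ndufa12 rose by 0.25 (SE 0.075, adjusted p 0.0294). Leaving out 11C replicate 1 or 2 also makes every pair its own block, and 6 members with 2920 of 15637 genes and 4 members with 2977 of 15656 genes then passed, these 4 genes among them each time. Over all settings tried, the adjusted p ran from 0.00203 to 0.491 for Ndufaf4, from 0.0223 to 0.656 for Ndufa4, from 0.00835 to 0.580 for Ndufab1 and from 0.00221 to 0.773 for Ndufa12. Without the 11C line, in the WT and XistDelA pairs alone, 4037 genes and 7 members passed in a fit chosen after seeing the data.

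**Figure D2:**
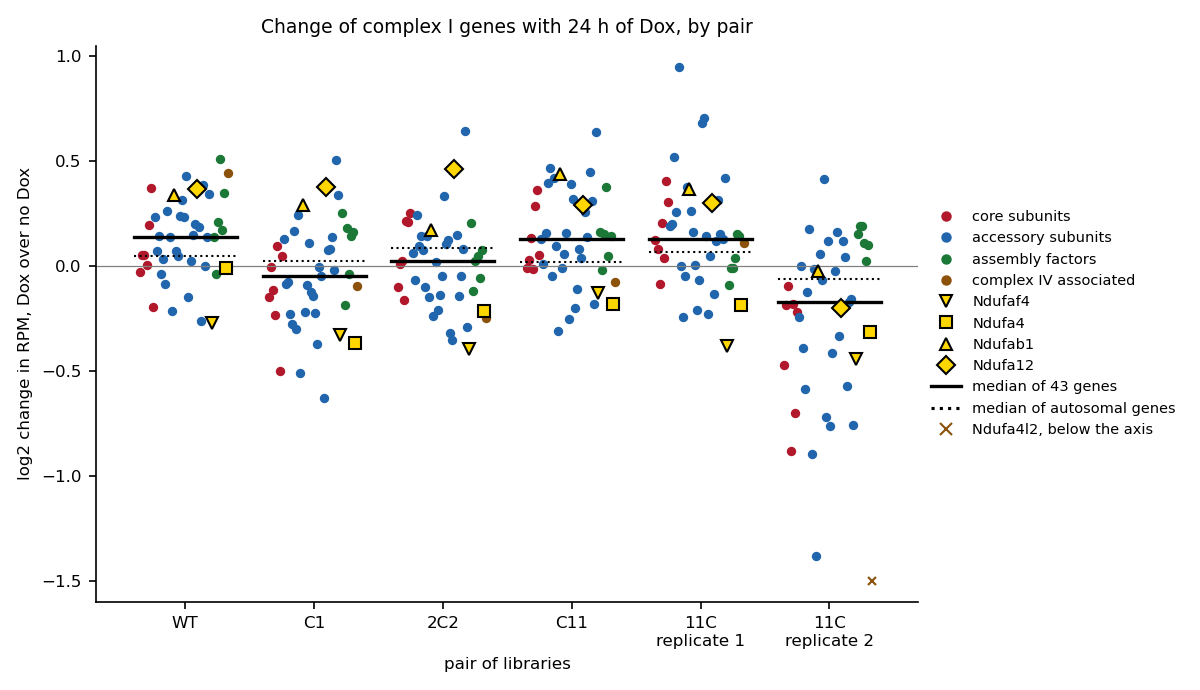
Log2 change in RPM, Dox over no Dox (vertical), for each of the 43 genes in each of the 6 pairs (horizontal), coloured by role, with the medians of the 43 genes (solid) and of autosomal genes (dotted). Ndufaf4 and Ndufa4 are under 0 in every pair, and the 11C replicate 2 pair is spread widest and lowest.

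Grouped by role, the core subunits had a median log2 change of -0.02, with Ndufv1 at -0.11 and Ndufv2 at 0.09. None of the 7 passed either fit. The accessory subunits had a median of 0.05 and the Ndufaf assembly factors a median of 0.11, against 0.01 over all genes tested. Among the assembly factors, Ndufaf6, which acts early in assembly, was higher with Dox in 6 of 6 pairs with a log2 change of 0.14 (SE 0.0884, adjusted p 0.501 by edgeR). Of the 7 assembly factors 5 had a positive log2 change and 2 a negative one, Ndufaf4 and Ndufaf3. Genes lower in 6 of 6 pairs made up 7.47% of 15202 autosomal genes and 2 of the 43 complex I genes, Ndufaf4 and Ndufa4. Genes higher in 6 of 6 pairs made up 10.6% of autosomal genes and 1 of the 43, Ndufaf6. Agreement over pairs was thus no more frequent among complex I genes than among autosomal genes at large.

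As a group the 43 genes did not move one way. Their median log2 change in a pair, minus the median over autosomal genes, was 0.09 in WT, -0.07 in C1, -0.07 in 2C2, 0.11 in C11, and 0.06 and -0.11 in the 11C replicates. It was above 0 in 3 pairs and below 0 in the other 3. Against autosomal genes of like length, a reference chosen after seeing the data, it was 0.09 in WT, 0.0208 in C1, -0.00828 in 2C2, 0.13 in C11, and 0.00401 and -0.0143 in the 11C replicates, so C1 turned and 3 pairs came close to 0. The number of the 43 genes that were higher with Dox was 32 in WT, 17 in C1, 24 in 2C2, 30 in C11, and 30 and 13 in the 11C replicates. As shares these were 74.4%, 39.5%, 55.8%, 69.8%, 69.8% and 30.2%, against 58.0%, 52.7%, 60.3%, 53.3%, 58.0% and 40.9% of autosomal genes in the same pairs. In the pair of 11C replicate 2, Ndufb7, an accessory subunit of the membrane arm, was at -1.38, and it was at 0.37 in replicate 1.

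In the XistDelA clones taken alone, no complex I gene passed the test without pairing, and a few did once each clone was compared with itself. Ndufa12 was higher in 3 of 3 clones by 0.35 (SE 0.0997) and Ndufab1 by 0.27 (SE 0.102), while Ndufb7 was lower in 3 of 3 with -0.36 (SE 0.138). Ndufaf4 was lower in 3 of 3 with -0.30 (SE 0.188). Of 14866 genes 3 (0.0202%) passed the edgeR test and 0 of the 42 members tested did; the adjusted p was 0.222 for Ndufa12, 0.291 for Ndufab1, 0.309 for Ndufb7 and 0.505 for Ndufaf4. Ndufa4l2 was not tested here because of its low counts. At an unadjusted p under 0.05 edgeR had 2162 of the 14866 genes and 4 of the 42 members. DESeq2 called 408 genes and 0 members, with 1955 genes and 4 members at an unadjusted p under 0.05. With the clone as replicate block, 4410 genes (29.7%) and 7 members (16.7%) passed. Of these, Ndufaf4 (-0.31, adjusted p 0.000851), Ndufa4 (-0.28, adjusted p 0.00368) and Ndufb7 (-0.36, adjusted p 0.0154) fell. Ndufa12 (0.35, adjusted p 0.00188), Ndufaf2 (0.18, adjusted p 0.00666), Ndufab1 (0.27, adjusted p 0.00862) and Ndufs4 (0.13, adjusted p 0.0414) rose in this paired edgeR fit. Ndufaf2 is a late assembly factor, and Ndufs4 is an accessory subunit next to the NADH-oxidising module. These clones share their libraries with the test over 6 pairs, so the fits are not independent of each other.

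In the 11C line no complex I gene passed. Ndufaf4 and Ndufa4 were lower and Ndufaf6 higher with Dox in both replicates, while others went opposite ways. Ndufb8, an accessory subunit of the membrane arm, went from 7.42 to 14.3 RPM in replicate 1 and from 7.20 to 6.59 RPM in replicate 2. The members with the smallest p were Ndufb8 with a log2 change of 0.48 (SE 0.375), Ndufaf4 with -0.42 (SE 0.335) and Ndufb10, another membrane-arm subunit, with -0.50 (SE 0.46). By edgeR 0 of 15140 genes (0%) and 0 of 43 members passed, with 173 genes and 0 members at an unadjusted p under 0.05; the adjusted p was 1.00 for these members. DESeq2 called 3 genes and 0 members, and with the replicate as block edgeR called 237 genes and 0 members. Without replicate 1 the value of Ndufb8 turned to -0.05, in a fit where the lone pair is assumed to vary like the other lines.

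The difference in response between 11C and XistDelA was tested as an interaction within pairs. The smallest p belonged to Ndufv2 with a log2 difference of -0.23 (SE 0.132, adjusted p 0.534), Ndufa12 with -0.27 (SE 0.156, adjusted p 0.538) and Ndufb10 with -0.47 (SE 0.279, adjusted p 0.549). By edgeR 117 of 15745 genes (0.743%) and 0 of the 43 passed, with 1955 genes and 0 members at an unadjusted p under 0.05. DESeq2 called 145 genes and 0 members. A single 11C replicate decides this test. Without replicate 1, 1111 genes and 2 members passed, among them Ndufb7 at -0.94 (adjusted p 0.0269), and without replicate 2, 1611 genes and 4 members passed, among them Ndufb7 at 0.66 (adjusted p 0.0335). In these fits the 11C arm is a single pair, assumed to vary like the clones, so their calls are no support for a difference. Without the pairing term 0 genes passed.

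The X-linked subunit genes were read beside the autosomal ones. Ndufa1, a small subunit of the membrane arm, had 6.96 and 4.57 RPM in WT without and with Dox. It had 6.64, 6.88 and 7.32 RPM in C1, 2C2 and C11 without Dox and 5.31, 5.16 and 4.81 RPM with Dox. In 11C it had 6.64 and 4.29 RPM without Dox and 5.86 and 3.75 RPM with Dox, so that it was lower in 6 of 6 pairs. Its log2 change was -0.41 (SE 0.133, adjusted p 0.184 by edgeR) over the 6 pairs and -0.42 (adjusted p 0.00877) with the pair as block. Ndufb11, also of the membrane arm, was lower in 5 of 6 pairs with -0.27 (SE 0.186, adjusted p 0.556), and with the pair as block it did not pass (adjusted p 0.128).

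The other genes of oxidative phosphorylation were read from fixed lists in the same fits. Over 6 pairs edgeR called 0 genes in every list. At an unadjusted p under 0.05 there were 2336 of all 15826 genes tested. By list these were 3 of 8 other assembly factors of complex I, 0 of 6 genes of complex II and 2 of 14 of complex III. For complex IV there were 0 of 22, for complex V 2 of 21 and for the regulators of mitochondrial gene expression 3 of 15. DESeq2 also called 0 genes of each of these lists. With the pair as block edgeR called 16.4% of all genes. By list it called 3 of 8 other assembly factors and 1 of 14 genes of complex III. It called 1 of 22 genes of complex IV, 2 of 21 of complex V and 3 of 15 regulators. In that fit the other assembly factors Tmem70, Foxred1 and Timmdc1 rose by 0.38, 0.21 and 0.17 (adjusted p 0.00904, 0.0400 and 0.0445). Tmem70, which also serves complex V, counts in both lists. Uqcc1, an assembly factor of complex III, rose by 0.20 (adjusted p 0.0227). Cox7c of complex IV fell by 0.25 (adjusted p 0.0266), and Atp5g3, a gene for the c subunit of complex V, fell by 0.25 (adjusted p 0.0143). Of the regulators, Tfb1m, the methyltransferase of mitochondrial ribosomal RNA, rose by 0.31 (adjusted p 0.00312). Gabpa, an ETS factor, fell by 0.24 (adjusted p 0.0113), and Tfb2m, which starts mitochondrial transcription, fell by 0.23 (adjusted p 0.0395). The first-named gene of complex II by p was Sdhaf1, at 0.48 (adjusted p 0.377 over the 6 pairs), and no gene of that list passed either fit. Among the cell type markers, edgeR called 0 of 9 pluripotency markers and 0 of 8 feeder markers over the 6 pairs, with 4 and 0 at an unadjusted p under 0.05, and DESeq2 called 2 and 0. With the pair as block, 4 pluripotency markers passed, Zfp42 up and Tdgf1, Klf4 and Dppa5a down, and 1 feeder marker, Thy1, down. Their part in the results on complex I genes was not tested.

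The second question was whether complex I genes differ between the lines. A few did, and Ndufaf4 had the lowest log2 difference: it was at 8.25 to 18.1 RPM in the 11C libraries and at 27.2 to 46.2 RPM in all others, without and with Dox. The core genes Ndufs1 and Ndufs3 and the complex IV gene Ndufa4 were lower in 11C as well, and Ndufaf2 was higher. Ndufa4l2, barely present elsewhere, had 28 counts or more in 3 of 4 libraries of 11C. No accessory subunit passed between 11C and XistDelA with all libraries, and Ndufa9 passed in the test among the 5 lines. For 11C, line and library set cannot be told apart in any of these differences.

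**Figure D3:**
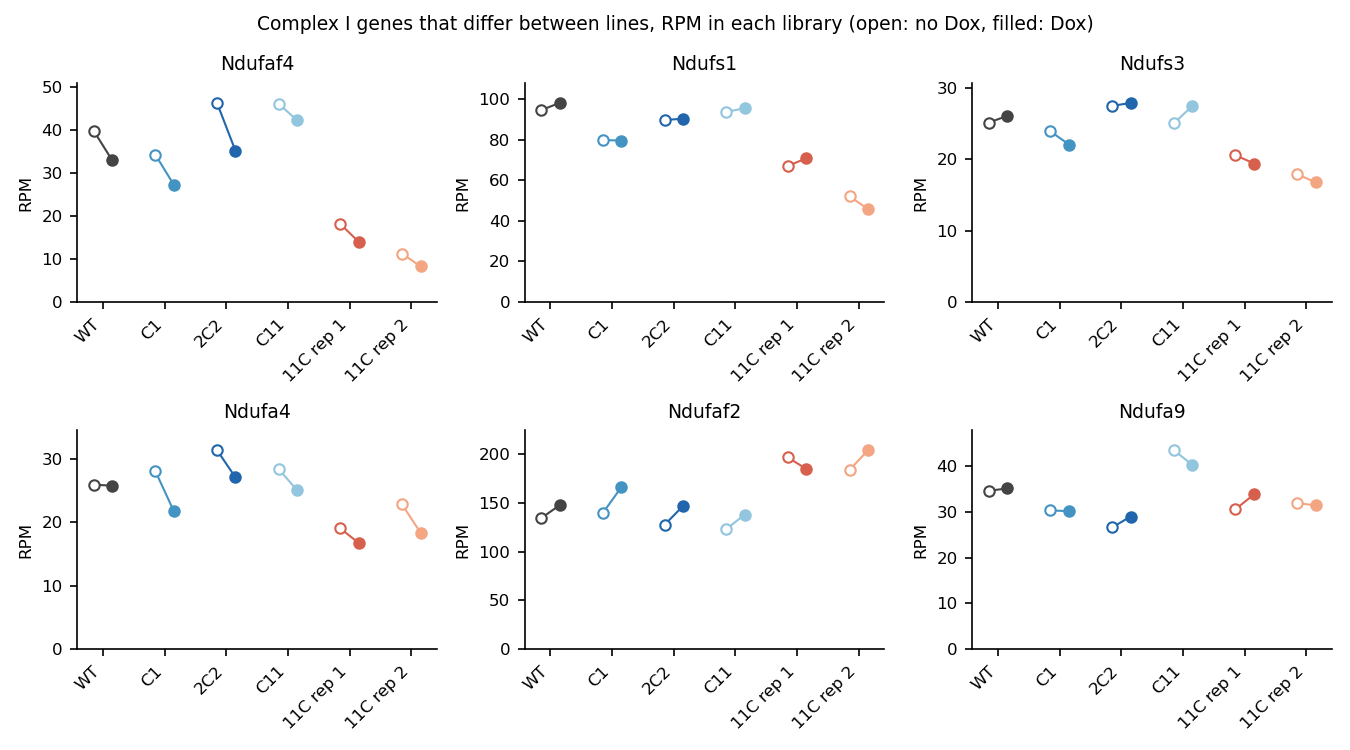
RPM (vertical, from 0) of 6 complex I genes that differ between lines, in each pair of libraries (horizontal), open circles without Dox and filled circles with Dox, joined within a pair. Ndufaf4 in 11C stays under 20 RPM in each of 4 libraries, while the other lines are above 25 RPM.

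Without Dox, Ndufaf4 had a mean of 42.2 ± 6.88 RPM (SD, n = 3) in the XistDelA clones and of 14.7 ± 4.86 RPM (SD, n = 2) in 11C. All 4 of its 11C libraries lay under the other 8, so the groups do not overlap. Ndufs1 had 94.7 and 98.3 RPM in WT without and with Dox. It had 79.9, 89.9 and 93.9 RPM in C1, 2C2 and C11 without Dox and 79.7, 90.4 and 95.7 RPM with Dox. The 11C replicates had 67.1 and 52.1 RPM without Dox and 71.0 and 45.8 RPM with Dox. The 11C libraries were again all below the others, replicate 2 more than replicate 1. Ndufs3, of the ubiquinone-reducing module, had 25.1 and 26.0 RPM in WT without and with Dox. It had 23.9, 27.5 and 25 RPM in C1, 2C2 and C11 without Dox and 22.0, 27.9 and 27.4 RPM with Dox. In 11C it had 20.6 and 17.9 RPM without Dox and 19.4 and 16.7 RPM with Dox, all of them below the other lines.

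Ndufaf2 had 134 and 148 RPM in WT without and with Dox. It had 140, 127 and 123 RPM in C1, 2C2 and C11 without Dox and 166, 147 and 138 RPM with Dox. The 11C replicates had 197 and 184 RPM without Dox and 185 and 204 RPM with Dox, all above the other lines. Ndufa4, given above, was lower in the 11C libraries without Dox than in the other lines without Dox, but 11C replicate 2 without Dox, at 22.8 RPM, was above C1 with Dox. Ndufa4l2 had 2 and 3 counts in WT without and with Dox. It had 4, 1 and 1 counts in C1, 2C2 and C11 without Dox and 4, 1 and 1 counts with Dox. In 11C it had 32 and 28 counts without Dox and 58 and 4 counts with Dox. The 11C libraries without Dox were thus far above the others, while replicate 2 with Dox was not above C1 in counts.

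Without Dox, edgeR called 3483 of 15100 genes (23.1%) between 11C and the XistDelA clones, and 6 of the 43 complex I genes (14%), a smaller share than over all genes. Ndufaf4 was lower by a log2 difference of -1.65 (SE 0.224, adjusted p 0.00278) and Ndufs1 by -0.68 (SE 0.145, adjusted p 0.0126). Ndufa4 was lower by -0.60 (SE 0.177, adjusted p 0.0408) and Ndufs3 by -0.52 (SE 0.16, adjusted p 0.0443). Ndufaf2 was higher by 0.43 (SE 0.126, adjusted p 0.0378). Each of these held its direction in both 11C replicates against all 3 clones. For Ndufa4l2 the ratio of 11C to XistDelA counts, scaled to depth, was 18.5 (60 against 6 counts, 95% exact interval 8.01 to 52.4). That gene passed the count filter only through 11C, where it is high, so its call is no support and the counts stand for it; the other 5 calls do not depend on the filter in this way. Ndufaf4 passed with each XistDelA clone left out in turn, and it was at -1.97 without 11C replicate 1 and at -1.40 without replicate 2. In the fits without an 11C replicate the 11C arm is a single library, assumed to vary like the clones, so their calls are no support. Ndufs1 did not pass without 2C2 (adjusted p 0.0627) or without 11C replicate 2 (adjusted p 0.0538). Ndufs3 and Ndufaf2 lost the call whichever of the 5 libraries was left out, and Ndufa4 kept it only without 11C replicate 2 (-0.80, adjusted p 0.0310). Ndufs3 also lost the call by edgeR with normalization on 13 chromosomes (adjusted p 0.0501) and without the count filter (adjusted p 0.0511). Over all settings the adjusted p ran from 5.10e-10 to 0.0189 for Ndufaf4, from 0.000735 to 0.0627 for Ndufs1, from 0.0208 to 0.123 for Ndufaf2, from 0.0189 to 0.157 for Ndufa4 and from 0.0239 to 0.181 for Ndufs3. DESeq2 called 3816 genes and the same 6 members. With each library's gene length trend removed, a fit chosen after seeing the data, 3 members passed: Ndufaf4 (-1.62), Ndufs1 (-0.67) and Ndufa4l2, the last again through the filter. In that fit Ndufaf2 was at 0.29 (adjusted p 0.113), Ndufa4 at -0.54 (adjusted p 0.0639) and Ndufs3 at -0.49 (adjusted p 0.0534), so the differences of Ndufa4 and Ndufs3 kept most of their size.

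Taken by role, 2 of 7 core genes passed without Dox, both lower in 11C, with a median log2 difference of -0.15 over the 7. Of the 7 assembly factors 2 passed, 1 lower and 1 higher, with a median of -0.36 over the 7. None of the 27 accessory subunits passed, and their median was -0.01. The smallest p among the accessory subunits belonged to Ndufb8 (log2 difference -0.46, SE 0.203, adjusted p 0.128). By edgeR 1 of the 27 was at an unadjusted p under 0.05, against 5830 of all 15100 genes, and DESeq2 called 0. Without 11C replicate 2, Ndufa12 was at 0.62, in a fit where the 11C arm is a single library. Over all members the median was -0.10, against 0.02 over all genes tested. This median depended on the 11C replicate. It was -0.22 without replicate 1 (all genes -0.01) and -0.03 without replicate 2 (all genes 0.03). With Dox it was -0.05 with all libraries (all genes 0.05). There it was -0.36 without replicate 1 (all genes -0.03) and 0.10 without replicate 2 (all genes 0.02). Genes with all 4 libraries of 11C below the other 8 made up 10.7% of 15202 autosomal genes and 5 of the 43 complex I genes (11.6%): Ndufs1, Ndufs3, Ndufaf1, Ndufaf4 and Ndufaf5. Ndufaf1 belongs to the complex that builds the membrane arm, and Ndufaf5 hydroxylates an arginine of Ndufs7. Genes with all 4 above the others made up 16.3% of autosomal genes and 3 of the 43 (6.98%): Ndufa10, Ndufa4l2 and Ndufaf2.

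**Figure D4:**
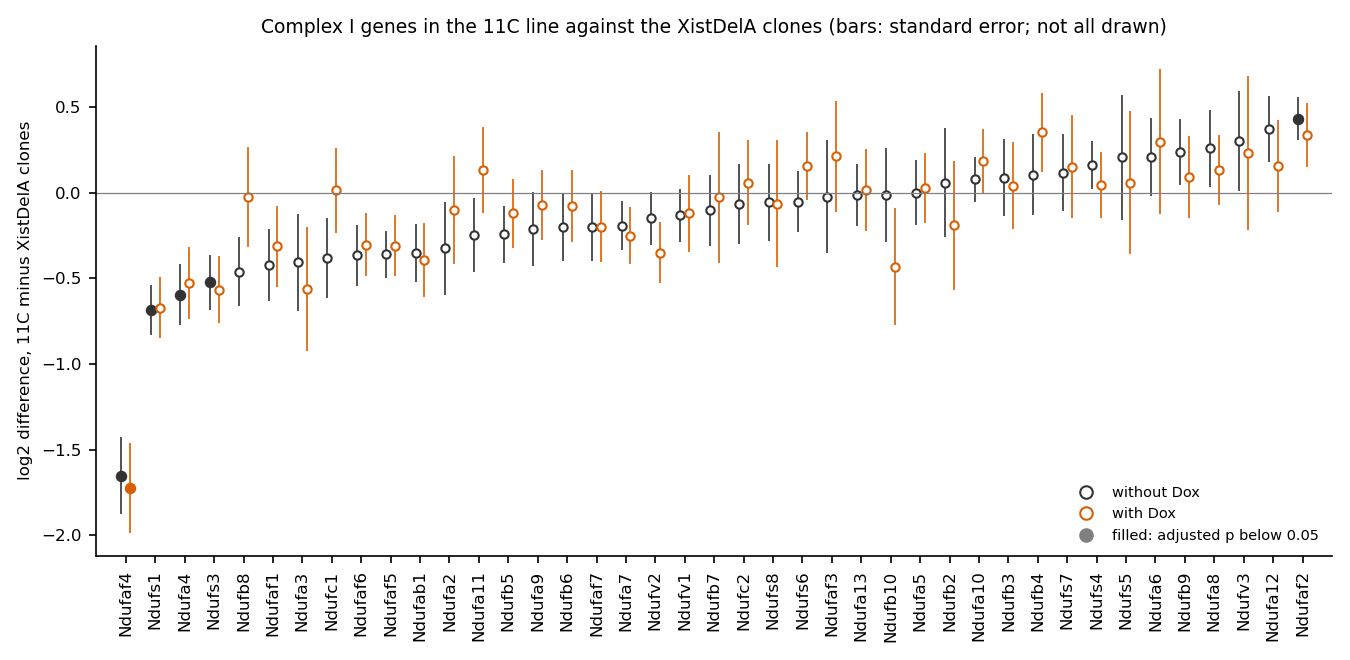
Log2 difference of 11C minus the XistDelA clones (vertical, with standard errors) for complex I genes, Ndufa4l2 among those not drawn, ordered by the value without Dox (horizontal), dark without Dox and orange with Dox, filled where the adjusted p is below 0.05. Ndufaf4 lies alone at -1.65 and -1.72, and the accessory subunits are spread about 0.

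With Dox, in the other libraries of the same lines, 1157 of 15384 genes (7.52%) and 1 of the 42 members tested (2.38%) passed the edgeR test. Ndufaf4 was lower in 11C by -1.72 (SE 0.261, adjusted p 0.0149), in both replicates against all 3 clones. Ndufs1 was at -0.67 (SE 0.178, adjusted p 0.0578) and Ndufs3 at -0.57 (SE 0.194, adjusted p 0.108). Over all settings the adjusted p ran from 3.85e-08 to 0.0536 for Ndufaf4 and from 0.0194 to 0.206 for Ndufs1. DESeq2 called 2027 genes and 2 members, Ndufaf4 and Ndufs1. Ndufa4l2 was not tested here, and its ratio of counts was 14.9 (62 against 6 counts, 95% exact interval 6.47 to 42.1), of which replicate 1 gave 58. Between the states, its ratio of Dox to no Dox was 1.08 (interval 0.693 to 1.73) in replicate 1 and 0.128 (interval 0.0326 to 0.366) in replicate 2. The number of calls hangs on single libraries here: without C11, 95 genes and 0 members passed, Ndufaf4 then having -1.56 and an adjusted p of 0.0536. Without 11C replicate 1, 2467 genes and 6 members passed, all lower, and without 11C replicate 2, 3236 genes and 4 members passed. These lone 11C libraries are assumed to vary like the clones.

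The other core genes did not pass in either state. In the 11C minus XistDelA difference without Dox, Ndufv2 was at -0.15, Ndufv1 at -0.13, Ndufs8 at -0.05 and Ndufs7 at 0.12, with adjusted p by edgeR from 0.490 to 0.878. With Dox, the direction of Ndufs7, Ndufs8 and Ndufv1 depended on the 11C replicate. The heat map of deviations shows a split between the replicates for many accessory subunits.

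**Figure D5:**
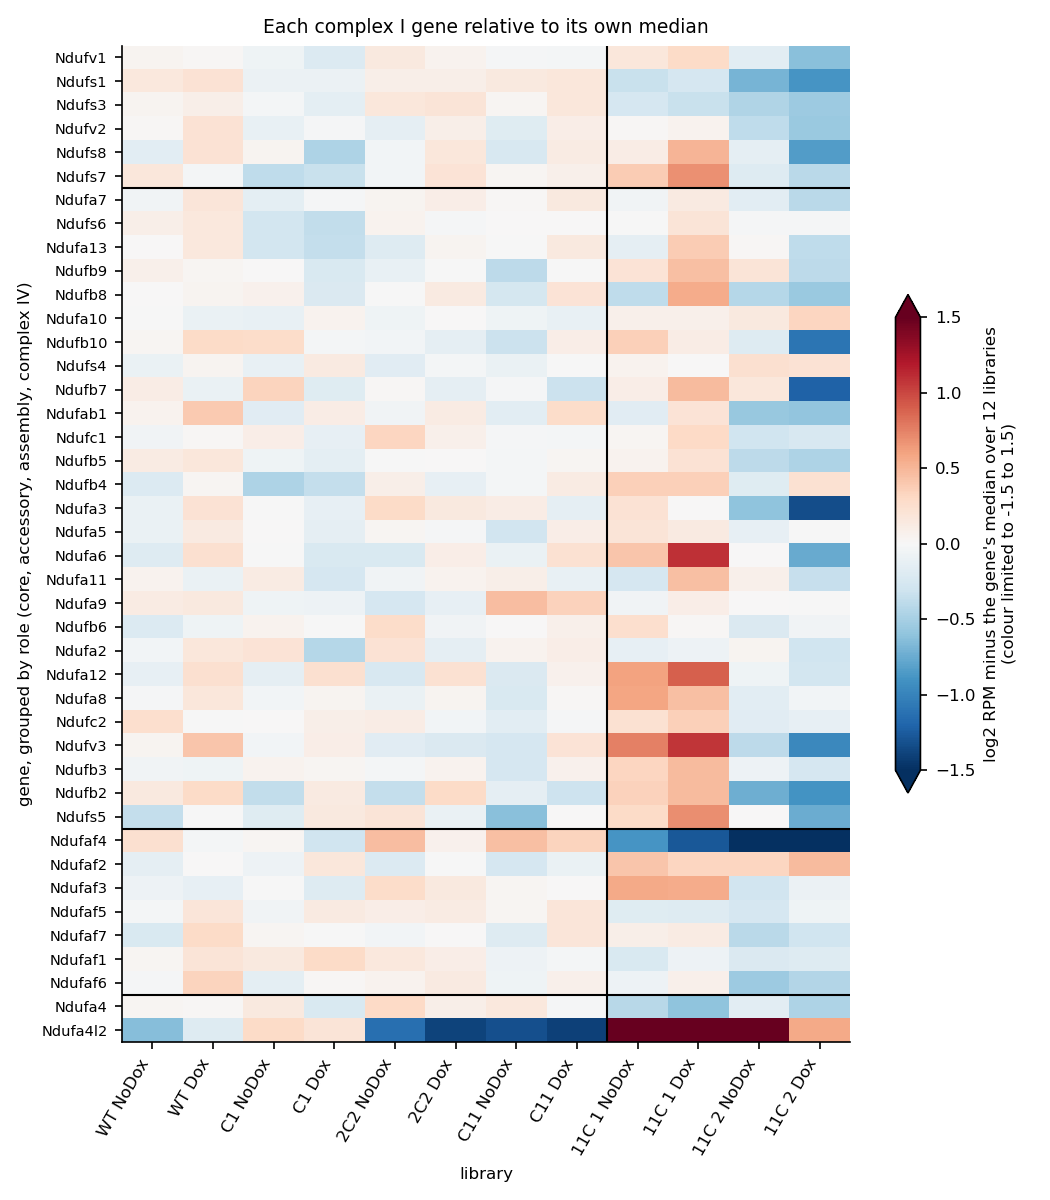
Log2 RPM of 42 of the 43 genes minus the gene's median over 12 libraries (colour, limited to -1.5 and 1.5), with genes grouped by role (vertical) and libraries by line and state (horizontal), 11C to the right of the black line. Ndufaf4 is low and Ndufaf2 high in every 11C library, and most short accessory subunits are high in 11C replicate 1 and low in replicate 2 with Dox.

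A test of any difference among the 5 lines, adjusted for Dox, called 5568 of 15826 genes (35.2%) and 7 of the 43 complex I genes (16.3%) by edgeR. These were Ndufaf4 (adjusted p 9.42e-05), Ndufs1 (0.00103), Ndufa4l2 (counts above), Ndufs3 (0.00292), Ndufa9 (0.0146), Ndufa4 (0.0204) and Ndufaf2 (0.0328). This test does not tell which line differs. All but Ndufa9 are the 6 members that passed between 11C and XistDelA without Dox, above. DESeq2 called 6452 genes and 9 members. Without 11C replicate 1, 20 of 42 members and 9781 of 15637 genes passed, and without replicate 2, 15 of 43 members and 10181 of 15656 genes; Ndufa9 did not pass without C11 (adjusted p 0.358), nor Ndufa4 without 2C2 (0.0597) or with the length trend removed (0.0874), nor Ndufaf2 without C11 (0.0827) or WT (0.0520).

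Ndufa9, an accessory subunit at the joint of the arms of complex I, was highest in another line, C11. It had 43.5 and 40.3 RPM in C11 without and with Dox, against 26.6 to 35.1 RPM in the other 10 libraries. The C11 values are above all others. It lies on chromosome 6 at 126821862 to 126849144 (mm10), and a segment above 120 Mb of that chromosome was looked at after this value was seen. In C11 the 209 expressed genes there had a median of 0.43 and 0.48 (log2, over the other lines) without and with Dox, and from -0.22 to 0.27 elsewhere. The share of allelic counts from 129S over the segment was 35.3% in both C11 libraries and 49.2% to 52.2% in the other 10. For Ndufa9 itself it was 39.1% (95% Wilson interval 33.4 to 45.2) and 39.5% (33.8 to 45.5) in C11, against 47.6% to 57.4% elsewhere. Copy number was not measured here.

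Shares of the 129S allele were read for the other members as well. Of the 43 genes 19 had at least 100 allelic counts in every library. Ndufaf4 had fewer in 11C replicate 2 with Dox, and its 129S share ran from 48.5% to 62.3% over the 12 libraries; in 11C without Dox it was 57.6% (95% Wilson interval 51.2 to 63.9) and 53.1% (43.9 to 62.0). Both alleles of Ndufaf4 were therefore low in 11C. The share of Ndufs1 was 56.5% to 59.8% in 11C and 50.2% to 56.5% in the other lines. Ndufaf6 and Ndufv2 had the highest median shares of the 19, 64.5% and 62.1%. Ndufa13, an accessory subunit also known as GRIM-19, had the lowest, 39.0%. Its shares ran from 36.7% to 41.8%. It lies on chromosome 8, and shares over that chromosome were not set beside it, so gene and chromosome cannot be told apart here. Wider ranges over libraries were seen for Ndufv1, from 41.6% to 59.2%, and Ndufaf7, an assembly factor with methyltransferase activity, from 39.0% to 55.2%.

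Genes next to the members that differ were looked at after the calls were seen, within 300 kb and in the 11C minus XistDelA difference without Dox, where 23.1% of all genes passed. Of the 3 tested neighbours of Ndufaf4 0 passed the edgeR test: Mms22l was at -0.29, Klhl32 at -0.35 and Gpr63 at -0.43, with 1 of them, Gpr63, at an unadjusted p under 0.05. All 3 were thus lower in 11C, by less than Ndufaf4. Near Ndufs1, 2 of 6 passed, Eef1b2 with -1.11 (adjusted p 0.00262) and Ino80d with -0.95 (adjusted p 0.00345). Near Ndufs3, 2 of 13 passed, Nup160 with -0.65 (adjusted p 0.0160) and Celf1 with -0.42 (adjusted p 0.0453). Near Ndufa4l2, 1 of 16 passed, Nxph4 with 4.84 (SE 0.857, adjusted p 0.00660), which like Ndufa4l2 was higher in 11C. Near Ndufaf2, Smim15 had -1.05 (adjusted p 0.00838) and Depdc1b 0.45 (adjusted p 0.0488) among 5 tested, and near Ndufa4, Gm6578 had 2.64 (adjusted p 0.00623) among 2.

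Genes of the other complexes also passed between 11C and XistDelA, and the counts are to be read beside the 23.1% of all genes that passed. Without Dox, edgeR called 0 of 6 genes of complex II. Of these 6, 3 were lower at an unadjusted p under 0.05, a level that 5830 of all 15100 genes reached. Sdhd had -0.54 (adjusted p 0.0563), and it was the 1 gene of the list that DESeq2 called. In complex III 2 of 14 passed, both lower, the cytochrome c1 gene Cyc1 with -0.90 (adjusted p 0.00641) and the Rieske protein gene Uqcrfs1 with -1.04 (adjusted p 0.00739). In complex IV 6 of 22 passed, all lower, among them Cox4i1 with -0.95 (adjusted p 0.00589) and Cox6c with -0.83 (adjusted p 0.00741). In complex V 5 of 21 passed, all lower, among them Atp5b, the catalytic beta subunit, with -0.87 (adjusted p 0.00431). The genes of complexes III, IV and V that passed were thus all lower in 11C, where calls over all genes were 1685 higher and 1798 lower. The numbers that passed in these lists are not far from the 23.1% of all genes. Whether the lists as groups differ from other genes was not tested. Of the 8 other assembly factors tested 1 passed, higher in 11C: Nubpl, which brings iron-sulfur clusters to complex I, with 0.93 (adjusted p 0.00903). Of the 15 regulators 3 passed, all lower: Gabpa with -0.67 (adjusted p 0.0143), Tfam, which packs and transcribes mitochondrial DNA, with -0.56 (adjusted p 0.0222) and the coactivator gene Pprc1 with -0.60 (adjusted p 0.0467). Cyc1, Uqcrfs1, Cox4i1, Cox6c, Atp5b and Nubpl passed with each XistDelA clone left out in turn. Without either 11C replicate the 11C arm is a single library, assumed to vary like the clones, so calls in those fits are no support. Of the other calls, 3 of the 6 in complex IV (Cox5a, Cox7c and Cox16) were lost in at least 1 fit with a library left out. So were 4 of the 5 in complex V (Atp5g3, Atp5l, Atp5g1 and Atp5a1). The regulators lost theirs too: the adjusted p rose to 0.0697 for Gabpa and 0.103 for Tfam without 2C2, and to 0.139 for Pprc1 without 11C replicate 1, where Pprc1 was at -0.33, against -0.95 without replicate 2. In complex III as a whole 7 genes were higher and 7 lower, with a median of 0.03; the medians of complexes IV and V were -0.23 and -0.14. The genes named in the lists for this difference were chosen after their values were seen. With Dox, where 7.52% of all genes passed, edgeR called 1 gene of complex III (Uqcrfs1) and 1 of complex V (Atp5g3), both lower. By edgeR 0 of the other assembly factors, of complexes II and IV and of the regulators passed. Of these lists, in this order, 1, 1, 6 and 3 genes were at an unadjusted p under 0.05, against 4247 of all 15384 genes. DESeq2 called 1, 0, 3 and 1 of them. The X-linked Ndufa1 and Ndufb11 did not pass in either state.

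Cell type markers moved with the line too. Without Dox, 6 of 9 pluripotency markers tested differed between 11C and XistDelA: Utf1 was higher, and Klf4, Dppa5a, Nanog, Tfcp2l1 and Pou5f1 were lower, Klf4 by -1.34 (adjusted p 0.00269 by edgeR) and Pou5f1 by -0.41 (adjusted p 0.0494). Of 8 feeder markers tested 3 differed, Pdgfrb higher and Col1a1 and Col1a2 lower. With Dox, 2 of 9 pluripotency markers, Utf1 higher and Klf4 lower, and 1 of 8 feeder markers, Col1a1 lower, differed by edgeR, and DESeq2 called 4 and 3. The summed pluripotency markers had 2012 and 1705 RPM in the 11C replicates without Dox against 2075, 2181 and 2216 RPM in C1, 2C2 and C11. The summed feeder markers had 21.9 and 13.6 RPM against 34.2, 24.0 and 21.2 RPM. Their part in the difference of the complex I genes was not tested.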

How the data were processed

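Counts of read pairs per gene, both parental genomes together, were used as deposited by the authors, who per the file headers made them with featureCounts 1.5.2 over whole genes by strand (mm10) after Bowtie2 2.3.2 and STAR 2.4.2a. Counts assigned to Cast or 129S served for allelic shares. The genes and lists were chosen with earlier results of these data known. Named were core subunits, members past an adjusted p of 0.05 in a test or else the 3 with the smallest p, the highest and lowest levels, and up to 4 genes of each other list.

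Tests were done in R 4.3.3 with edgeR 4.0.16 (TMM normalization, filter by expression, quasi-likelihood), limma 3.58.1 and DESeq2 1.42.0, and tables and figures with Python 3.11.15 and scipy 1.17.1. The 6-pair fit had a term for each line, the fits within XistDelA and 11C none, and the interaction a term for each pair. Whether pairs match was checked by correlation of gene values after removal of group means, which was 0.699, 0.487 and 0.627 within C1, 2C2 and C11. The removal pushes values between unlike clones below 0, so these are no support. With 2 replicates, as in 11C, it fixes all values at 0.739 or its negative, and only the sign, positive for the labelled pairs, bears on the matching.

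Alternatives were other normalizations, no filter, DESeq2, the replicate block added or removed, and each replicate left out. Chosen after seeing the data were the fits without the length trend, the paired fits without a replicate and the WT and XistDelA pairs alone. Of the fixed names, Ndufaf8, Coa1, Dmac1, Dmac2, Sdhaf3, Sdhaf4, Uqcc3 and Twnk are not in the tables. Mitochondrial genes, protein levels and the sequences of the deletions were not used here.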

Additional observations from a re-analysis of the deposited data

How the results depend on the processing

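In the Dox test over 6 pairs, 0 complex I genes passed in the fit fixed beforehand. The number became 4 with the pair as replicate block, 4 with that block without 11C replicate 2, 4 with that block and each library's length trend removed, and 7 in the WT and XistDelA pairs alone. It ran from 0 to 6 over the fits with a replicate left out. Of all genes 147 passed, and the number became 621 by DESeq2, 2588 with the pair as replicate block, 2977 with the block without 11C replicate 2, 2504 with the block and the length trend removed, 4037 in WT and XistDelA alone, 79 with a term for genotype only, and 3 to 2977 with a replicate left out. By construction, leaving out either 11C replicate gives each pair its own block.

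In the XistDelA clones 0 members passed, and 7 did with the clone as replicate block. Of all genes 3 passed, then 408 by DESeq2, 4410 with the replicate block and 0 to 2 with a clone left out. In the 11C line 0 of all genes passed, then 2 without the count filter, 3 by DESeq2, 237 with the replicate block and 1 with either replicate left out; there an arm is a lone sample, assumed to vary like the other groups. For the difference in response 0 members passed, and 0 to 4 with a replicate left out; of all genes 117 passed, then 240 without the count filter, 0 without the replicate block and 15 to 1611 with a replicate left out.

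Between 11C and XistDelA without Dox 6 members passed, then 3 with the length trend removed and 2 to 4 with a replicate left out; of all genes 3483 passed, then 1119 to 3144. With Dox 1 member passed, then 2 by DESeq2 and 0 to 6 with a replicate left out; of all genes 1157 passed, then 2027 by DESeq2 and 95 to 3236. Among the 5 lines 7 members passed, then 5 to 20 with a replicate left out; of all genes 5568 passed, then 4399 to 10181. Apart from what is built into the fits, the cause of these differences was not tested.

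Directions of single genes turned when a replicate was left out. In the difference in response, Ndufb7 passed without either 11C replicate but in opposite directions, -0.94 without replicate 1 and 0.66 without replicate 2. The genes that follow did not pass with all libraries. With Dox over 6 pairs the log2 change of Ndufs7 ran from -0.0179 to 0.0940 and of Ndufs8 from -0.0206 to 0.16. In the 11C line Ndufb8 ran from -0.0546 to 0.87. Between 11C and XistDelA without Dox, Ndufs7 ran from -0.13 to 0.32 and Ndufs8 from -0.12 to 0.0101. With Dox, Ndufs7 ran from -0.36 to 0.47, Ndufs8 from -0.76 to 0.33 and Ndufv1 from -0.52 to 0.14.

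The median Dox change of the complex I genes over pairs was -0.00, from -0.07 to 0.06 with a pair left out. In the C1 pair it turned from -0.07 to 0.0208 against autosomal genes of like length. Of the alternatives to results that answer a comparison, 57 moved the result and 95 did not. Among the other results 900 alternatives left the result as it was, 95 made it stronger, 62 weaker, 14 reversed it and 1 moved it.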
